A study of Mus musculus with 12 samples.

Results

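Imprinted genes with roles in growth and in the nervous system, 10 in number, were followed across 4 kinds of mouse cells: Peg3, Ndn, Snrpn, Mest, Peg10, Sgce, Plagl1, Grb10, Impact and Igf2r. They were taken by gene symbol, as every probe whose symbol in the platform annotation was one of the 10. Of the 10 genes, 9 had a probe (21 probes of the 45281 on the array) and 7 could be tested (Peg3, Ndn, Mest, Peg10, Grb10, Impact and Igf2r), among 10096 genes tested in all. No probe carried the symbol Snrpn, and neither Plagl1 nor Sgce was detected on all 3 arrays of any group.

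RNA from 12 samples was hybridised to Illumina mouse bead arrays, 3 arrays for each of 4 groups that are all labelled with the OG2 mouse line, a line that carries a green fluorescent reporter driven by Oct4 sequences. The groups were male embryonic fibroblasts (MEF), embryonic stem cells of female and male origin mixed (ESC), male induced pluripotent stem cells made with Oct4, Sox2, Klf4 and c-myc (iPS4F), and male induced pluripotent stem cells made with those factors plus the chromatin remodelling subunits Brg1 and Baf155 (iPS6F). The labels do not say how many clones or cultures the 3 arrays of a group represent, so each p-value measures only the spread between arrays, which may be technical. Only the ESC hold female cells, so sex and cell type cannot be told apart where ESC are compared.

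Imprinted genes are expressed from the maternal or the paternal copy alone, and the choice is carried by DNA methylation that is set in the germ line and protected after fertilisation. Peg3, Ndn, Snrpn, Mest, Peg10, Sgce, Plagl1 and Impact are expressed from the paternal copy in mouse. Igf2r is expressed from the maternal copy in most mouse tissues, and Grb10 from the maternal copy in most tissues and from the paternal copy in neurons. The arrays read total RNA and not the parental copies, so a level below says nothing of how many copies were active.

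The promoters of 4 genes are shown because their RNA gave the lowest ESC levels relative to MEF (Grb10 and Ndn), because a neighbour of Ndn in the same domain ran the opposite way (the Snrpn transcript), or because the sequence holds the most copies of an imprint-related motif among the genes shown (Mest). Each is a window from 250 bases before to 50 bases after a RefSeq transcript start on build GRCm38.p6, written on the strand of the gene. Capitals mark TGCCGC or its reverse complement GCGGCA, the hexamer bound by Zfp57, a zinc finger protein that protects methylated imprinting control regions.
Grb10 (chr11:12037371-12037670, minus strand): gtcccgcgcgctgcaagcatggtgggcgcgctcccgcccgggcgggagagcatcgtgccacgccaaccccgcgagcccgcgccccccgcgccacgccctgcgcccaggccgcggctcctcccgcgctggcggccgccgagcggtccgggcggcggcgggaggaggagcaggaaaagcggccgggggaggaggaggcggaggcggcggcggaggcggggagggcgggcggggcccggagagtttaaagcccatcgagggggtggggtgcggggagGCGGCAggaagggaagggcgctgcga
Mest (chr6:30737800-30738099, plus strand): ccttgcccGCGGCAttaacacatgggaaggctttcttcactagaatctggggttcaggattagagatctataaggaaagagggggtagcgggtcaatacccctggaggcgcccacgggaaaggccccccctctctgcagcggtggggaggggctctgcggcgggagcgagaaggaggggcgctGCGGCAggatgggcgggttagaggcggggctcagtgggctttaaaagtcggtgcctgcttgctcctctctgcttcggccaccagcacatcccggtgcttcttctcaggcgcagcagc
Ndn (chr7:62348027-62348326, plus strand): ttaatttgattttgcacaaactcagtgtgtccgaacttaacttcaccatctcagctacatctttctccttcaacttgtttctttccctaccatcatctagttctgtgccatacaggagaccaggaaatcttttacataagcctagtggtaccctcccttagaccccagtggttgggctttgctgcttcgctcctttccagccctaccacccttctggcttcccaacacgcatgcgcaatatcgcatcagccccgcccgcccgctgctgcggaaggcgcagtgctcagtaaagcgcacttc
Snrpn, shared with Snurf (chr7:60005150-60005449, minus strand): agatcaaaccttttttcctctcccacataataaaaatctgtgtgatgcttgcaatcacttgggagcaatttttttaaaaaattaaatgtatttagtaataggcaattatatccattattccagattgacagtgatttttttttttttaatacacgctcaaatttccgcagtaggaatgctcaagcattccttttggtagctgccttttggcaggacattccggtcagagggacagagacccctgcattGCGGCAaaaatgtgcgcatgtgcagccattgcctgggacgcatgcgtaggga

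The Grb10 window held 45 CG dinucleotides, more than 98.1% of all 32851 RefSeq windows of this length, and 1 copy of the hexamer. A further Grb10 start, at chr11:12027922-12028221, held 9 CG dinucleotides and no copy. The Mest window held 17 CG dinucleotides and 2 copies, as did a window that starts 3 bases downstream, and a further Mest start at chr6:30733256-30733555 held 8 CG dinucleotides and no copy. The Ndn window held 11 CG dinucleotides and no copy, and the Snrpn window held 7 and 1 copy, while 3 further Snrpn starts held 2 to 4 CG dinucleotides and no copy. In the set of all windows, 11.6% held at least 1 copy and 1.53% held at least 2, with a median of 7 CG dinucleotides. Windows were also found for Peg3 (13 CG dinucleotides, no copy), Igf2r (34, no copy) and Plagl1 (26, 1 copy). No window of Peg10, Sgce or Impact is given here. A match describes these letters only.

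The tested genes fell into clear patterns between cell types. Grb10, Ndn, Peg3, Igf2r and Mest were bright in MEF and lower in ESC and in both iPS groups, Peg10 ran the other way at a low level, and Impact was bright in all 4 groups. Against ESC, Peg3 and Peg10 were higher and Ndn was lower in both iPS groups. All levels below are background-corrected, quantile-normalized log2 intensities, and each difference comes from 1 limma fit over the 12 arrays, with p-values adjusted by Benjamini-Hochberg over all 10096 genes and called under 0.05. Errors are SD over 3 arrays for a level and standard error (SE) for a difference. Levels of different probes cannot be set against each other.

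**Figure D1:**
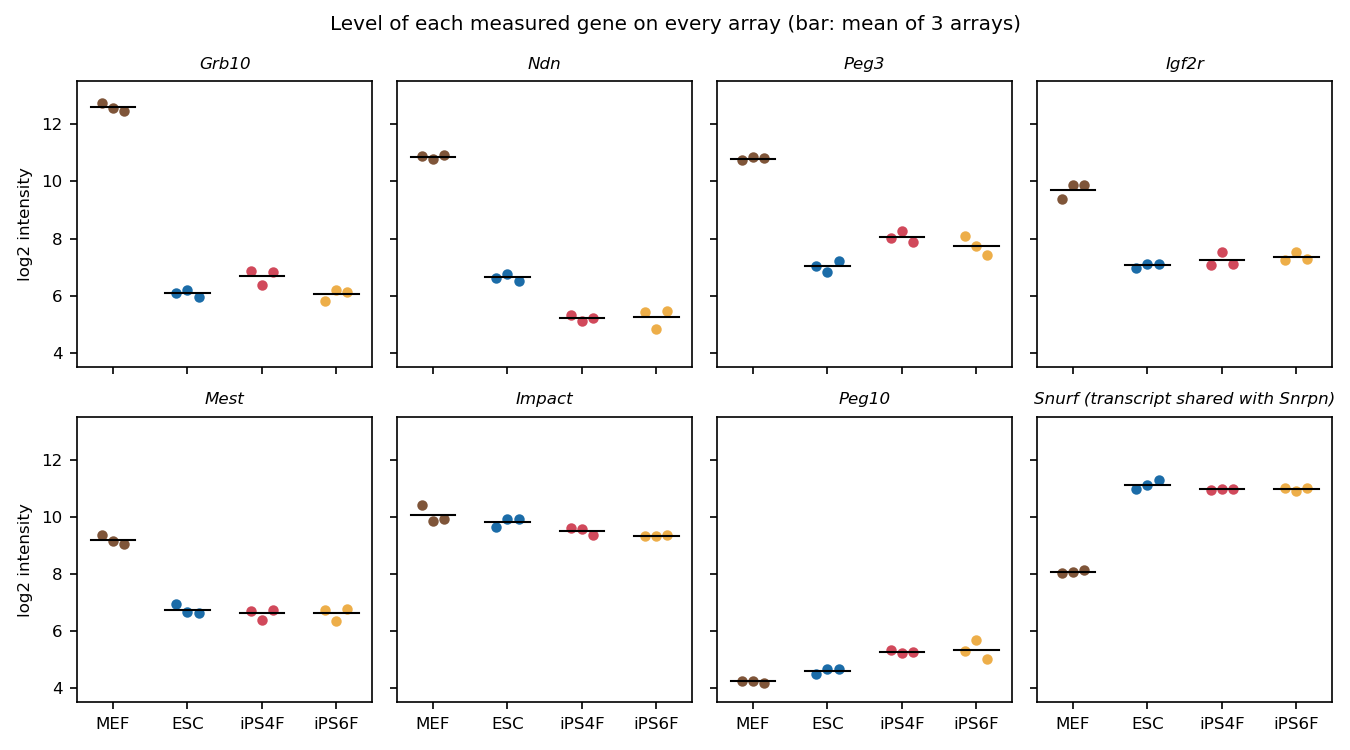
Log2 intensity (y axis) of each tested gene on each of the 12 arrays, grouped by cell type on the x axis, with points for arrays and bars for group means. Grb10 falls from 12.59 in MEF to about 6 in the pluripotent groups, while Impact stays between 9.34 and 10.05.

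Between ESC and MEF, 6 of the 7 tested genes passed the test, 1 higher and 5 lower in ESC, in a comparison where 76.5% of all tested genes passed, 40.3% higher and 36.3% lower. Both iPS groups gave 7 of 7 against MEF, 1 higher and 6 lower, beside 78.9% of all genes in iPS4F (39.8% higher, 39.1% lower) and 78.6% in iPS6F (39.2% higher, 39.4% lower). The 6 lower include Impact on its brightest probe, whose other probe was called higher than MEF (1.65 in iPS4F, 1.47 in iPS6F). The median log2 difference of the 7 genes was -2.66 for ESC, -2.57 for iPS4F and -2.56 for iPS6F, where the median over all tested genes was 0.08, 0.04 and 0.03. At 2-fold or more, 5 of the 7 passed in ESC and 6 in each iPS group, beside 38.6%, 40.2% and 40.9% of all genes. These 3 comparisons share the MEF arrays.

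Against ESC, 4 of the 7 genes passed in iPS4F (3 higher, 1 lower) and 4 in iPS6F (2 higher, 2 lower), beside 42.7% of all tested genes in iPS4F (17.8% higher, 24.9% lower) and 45.8% in iPS6F (17.8% higher, 28% lower). A count of 4 of 7 is not far from that background. The 2 lower in iPS6F were Ndn and, on its brightest probe, Impact, whose other probe gave 0.41 and was not called. At 2-fold or more, 2 passed in iPS4F and 1 in iPS6F, beside 5.97% and 7.16% of all genes. The median difference was 0.18 and -0.04, against -0.05 and -0.07 over all genes. Both comparisons share the ESC arrays. Between the iPS groups, 1 of the 7 passed (Grb10, lower in iPS6F), beside 1.16% of all genes (0.396% higher, 0.763% lower).

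**Figure D2:**
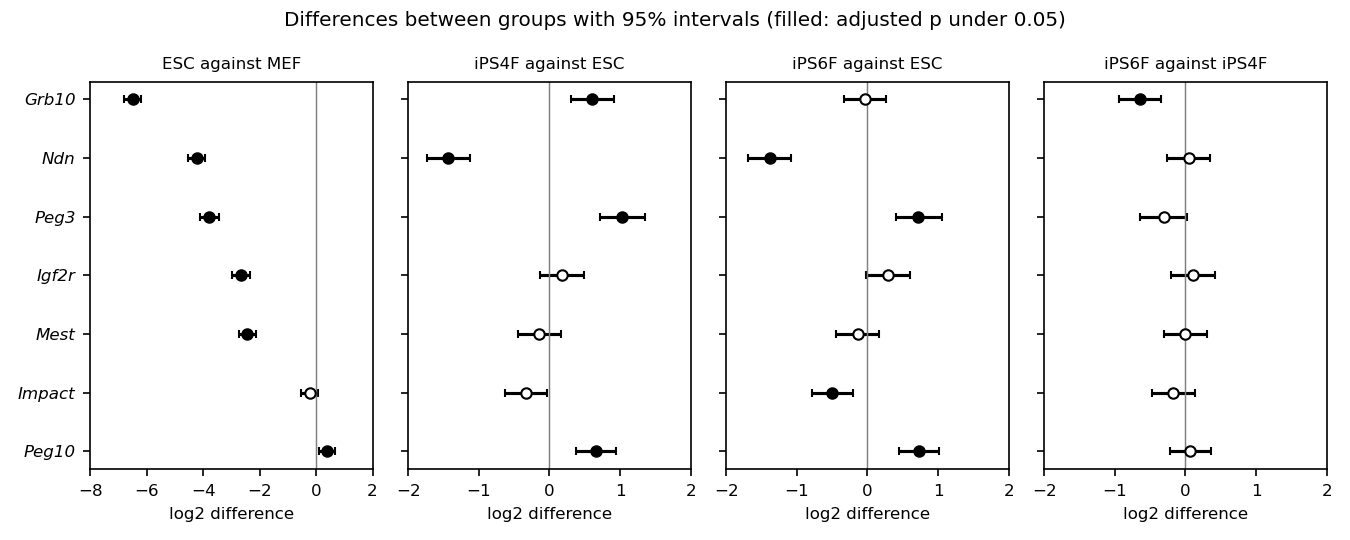
Log2 differences with 95% confidence intervals for each tested gene (y axis) in the comparisons between groups (x axis, log2 units). Peg3 and Peg10 lie to the right of 0 and Ndn to the left of 0 in both comparisons of iPS cells with ESC.

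Scaling bears on the smaller of these differences. When each array was scaled to a common median in place of quantile normalization, the median difference of all genes moved to 0.39 for iPS4F against ESC, 0.09 for iPS6F against ESC, -0.29 for iPS6F against iPS4F, 0.24 for iPS4F against MEF and -0.14 for ESC against MEF. The share of calls that were higher moved from 41.7% to 94.5% (iPS4F against ESC), from 38.9% to 76.5% (iPS6F against ESC), from 34.2% to 7.14% (iPS6F against iPS4F) and from 52.6% to 37.9% (ESC against MEF). Median-scaled differences of the 7 genes are therefore given below where a call ends or begins with them or a called difference moves by more than 1.5 times. For other genes, the end of a call is mostly stated without the value.

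The group labels matched their defining markers. All 10 ESC markers were detected on every ESC and iPS array, and 6 of the 10, Nanog and Esrrb among them, were detected on no MEF array. All 12 fibroblast markers were detected on every MEF array, with a summed linear intensity of 36300 to 41800 per array. That sum was 322 to 420 in ESC, 509 to 661 in iPS4F and 641 to 761 in iPS6F, where 2, 5 and 4 of the 12 were detected on all arrays, and Col1a1, Col3a1, Lum, Pdgfrb and Postn were detected on no array of any of these 3 groups. MEF also held macrophage markers, 6 of the 7 with a probe on every array (913 to 1310, against at most 29.6 elsewhere). The arrays are bulk measurements, in which fewer cells of a type and less RNA per cell cannot be told apart.

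Grb10, an adaptor that binds the insulin and insulin-like growth factor receptors and dampens their signal, had the largest difference of the 7 between MEF and each other group, on its brightest probe. Its log2 intensity was 12.74, 12.56 and 12.47 on the MEF arrays, 6.08, 6.21 and 5.97 in ESC, 6.88, 6.39 and 6.82 in iPS4F, and 5.83, 6.19 and 6.13 in iPS6F. The MEF arrays stood far above all others, and every iPS4F array lay above every ESC and iPS6F array. ESC were 90.7-fold below MEF (-6.50 ± 0.14 SE, limma adjusted p = 1.45e-16), iPS4F 59.5-fold and iPS6F 93-fold. With the mean of both kept Grb10 probes the differences were -3.84, -3.53 and -3.91, still called, and smaller than those of Ndn.

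Grb10 was higher in iPS4F than in ESC by 0.61 ± 0.14 SE (limma adjusted p = 0.0023), or 1.29 with median scaling, 0.36 without background correction and 0.32 with the mean of probes, all called. In iPS6F it was -0.04 from ESC, with a 95% interval of -0.33 to 0.26. The difference between iPS6F and iPS4F was -0.64 ± 0.14 SE, 1.56-fold lower in iPS6F (limma adjusted p = 0.0347). The size held at -0.37 or beyond in all 9 other settings of the representative probe or its average. It was -0.99 with median scaling, but 8 of these settings, that one included, ended the call. Leaving out MEF array 2 or 3, iPS4F array 1 or 3, or any iPS6F array also ended it, with adjusted p between 0.053 and 0.192. A dimmer Grb10 probe averaged 5.59 in MEF and 4.40, 4.43 and 4.30 in ESC, iPS4F and iPS6F, where it was detected on 1, 2 and 0 of 3 arrays. Near background it gave no call for iPS4F against ESC (0.03, limma adjusted p = 0.893 over all kept probes), and it cannot resolve differences among these 3 groups.

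Igf2r, the receptor that carries Igf2 to lysosomes for degradation and sorts lysosomal enzymes, followed the same order between MEF and the other cells. Its arrays read 9.40, 9.86 and 9.88 in MEF, 6.98, 7.10 and 7.10 in ESC, 7.08, 7.53 and 7.12 in iPS4F, and 7.24, 7.52 and 7.30 in iPS6F. MEF did not overlap with any other group, while ESC and iPS4F did overlap. ESC were 6.3-fold below MEF (-2.66 ± 0.15 SE, limma adjusted p = 3.26e-11), and the difference from MEF was -2.47 in iPS4F and -2.36 in iPS6F.

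Neither iPS group passed against ESC for this Igf2r probe, with 0.18 (95% interval -0.13 to 0.49) in iPS4F and 0.29 (-0.02 to 0.60) in iPS6F. The other Igf2r probe gave a different answer. It read 6.43, 5.91 and 6.11 in ESC, 7.27, 7.33 and 7.42 in iPS4F, and 7.35, 7.39 and 7.43 in iPS6F, with no overlap between ESC and either iPS group. Its differences from ESC were 1.19 ± 0.14 SE (limma adjusted p = 6.71e-06) and 1.24 (3.51e-06). The mean of both probes was called as well, at 0.69 and 0.77. With median scaling the brighter probe was itself called higher in iPS4F (0.87, limma adjusted p = 0.00815) and not in iPS6F (0.59). The difference between the probes was not itself tested, so whether Igf2r exceeded its ESC level depends on the probe read and on the scaling.

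Ndn encodes necdin, a protein of the MAGE family that restrains proliferation and is abundant in neurons. Its log2 intensity was 10.88, 10.78 and 10.92 in MEF, 6.63, 6.76 and 6.53 in ESC, 5.31, 5.10 and 5.22 in iPS4F, and 5.43, 4.85 and 5.48 in iPS6F. The groups formed 3 tiers with no overlap between them, MEF at the top, ESC in the middle, and the overlapping iPS groups at the bottom. ESC were 18.7-fold below MEF (-4.22 ± 0.14 SE, limma adjusted p = 5.1e-14), iPS4F 50.3-fold and iPS6F 48.7-fold.

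Against ESC, Ndn was lower by 2.69-fold in iPS4F (-1.43 ± 0.14 SE, limma adjusted p = 1.16e-06) and by 2.61-fold in iPS6F (-1.38 ± 0.14 SE, 1.23e-06). Median scaling gave -0.79 and -1.01, no background correction -0.71 and -0.69, an offset of 50 -0.91 and -0.88, and the authors' deposited log2 values -2.18 and -2.14, all of them called. No difference between the iPS groups was detectable (0.05, limma adjusted p = 0.951). Ndn had a single probe.

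Peg3, a zinc finger protein with roles in growth, maternal behaviour and cell death, was also brightest in MEF. Its arrays read 10.75, 10.84 and 10.82 in MEF, 7.03, 6.84 and 7.20 in ESC, 8.03, 8.27 and 7.87 in iPS4F, and 8.09, 7.74 and 7.42 in iPS6F. Every iPS array lay above every ESC array and below every MEF array, and the iPS groups overlapped. ESC were 13.7-fold below MEF (-3.78 ± 0.15 SE, limma adjusted p = 5.47e-13), while the difference from MEF was -2.74 in iPS4F and -3.05 in iPS6F.

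Peg3 thus ran opposite to Ndn between ESC and iPS cells. It was 2.05-fold higher than ESC in iPS4F (1.03 ± 0.15 SE, limma adjusted p = 5.44e-05, or 1.74 with median scaling) and 0.72 ± 0.15 SE higher in iPS6F (adjusted p = 0.00107). A dimmer Peg3 probe gave 0.91 and 0.83, both called, with -2.82 for ESC and -1.99 for iPS6F against MEF. In ESC that probe averaged 4.36, near background, and was detected on 1 of 3 arrays, so the size of its differences that involve ESC is uncertain. Between iPS6F and iPS4F the difference was -0.31 (95% interval -0.64 to 0.02), which was not called. Summed fibroblast markers were also higher in both iPS groups than in ESC, as given above, with Fn1 at 6.89 in ESC, 8.52 in iPS4F and 8.81 in iPS6F. Of the 12 markers, 4 were called higher and 1 lower in iPS4F and 3 higher and 0 lower in iPS6F by limma, with medians of 0.01 and -0.06, and their part in the Peg3 difference was not tested.

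Mest, a member of the alpha/beta hydrolase fold family first described as a mesoderm transcript, read 9.37, 9.14 and 9.04 in MEF, 6.96, 6.67 and 6.63 in ESC, 6.70, 6.40 and 6.75 in iPS4F, and 6.73, 6.35 and 6.78 in iPS6F. MEF stood apart, and the 3 pluripotent groups overlapped. ESC were 5.38-fold below MEF (-2.43 ± 0.14 SE, limma adjusted p = 8.95e-11), with -2.57 in iPS4F and -2.56 in iPS6F.

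Neither iPS group passed against ESC for the brightest Mest probe, at -0.14 in both (95% interval -0.44 to 0.17 in iPS4F, limma adjusted p = 0.485). The sign turned with median scaling, to 0.54 and 0.18, against a shift of all genes of 0.39 and 0.09. Both dimmer Mest probes were called lower in iPS cells. One gave -0.50 (limma adjusted p = 0.0408) in iPS4F and -0.80 (0.00232) in iPS6F, and the other -0.85 (0.00246) and -0.63 (0.0152). The mean of the 3 probes was called too, at -0.49 and -0.52.

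Peg10, a gene derived from a retrotransposon and needed for the placenta, was the only tested gene of the 7 called higher in ESC than in MEF. It was detected on no MEF array, where its kept probe read 4.26, 4.25 and 4.19. ESC read 4.49, 4.67 and 4.66, iPS4F 5.33, 5.22 and 5.25, and iPS6F 5.30, 5.69 and 5.03. The 3 tiers did not overlap, with both iPS groups at the top. Peg10 was at least 1.15-fold higher in ESC than in MEF (limma adjusted p = 0.0193), at least 1.81-fold in iPS4F and at least 1.90-fold in iPS6F, where the bound sets MEF at the lowest level that counted as detected. Such a bound is taken between means and leaves out the spread between arrays. The 95% interval of the log2 difference between ESC and MEF was 0.09 to 0.66. A second Peg10 probe was too dim to be kept. It averaged 4.22 in MEF and 4.15 in ESC, detected on no array of either group, so it does not show ESC above MEF. In iPS4F and iPS6F it averaged 4.38 and 4.42, detected on 2 of 3 arrays in each.

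The call between ESC and MEF ended with median scaling (0.24), without background correction, with an offset of 50, and without MEF array 3 or ESC array 2. Against ESC, Peg10 was higher by 0.66 ± 0.14 SE in iPS4F (limma adjusted p = 0.000906) and by 0.73 ± 0.14 SE in iPS6F (0.000349). The size depended on how dim probes were treated. These differences were 1.68 and 1.78 on the authors' deposited log2 values, 0.22 and 0.26 without background correction and 0.31 and 0.36 with an offset of 50, and 1.02 in iPS4F with median scaling, all called. Against MEF, the authors' values likewise gave 1.46 for ESC, 3.14 for iPS4F and 3.24 for iPS6F, and no background correction 0.12, 0.35 and 0.38.

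**Figure D3:**
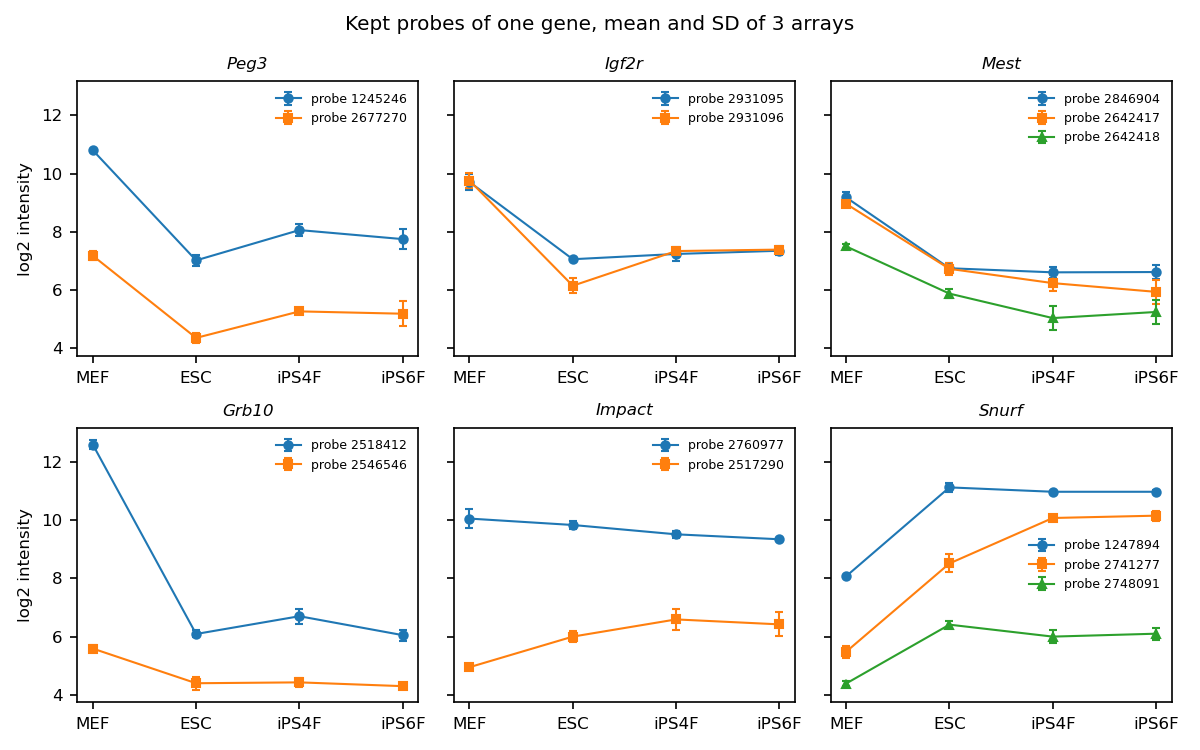
Log2 intensity (y axis) by group (x axis) for every kept probe of the genes with more than 1, as group means with SD over 3 arrays. The probes of Impact go in opposite directions between MEF and the other groups, and those of Igf2r separate between ESC and iPS cells.

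Sgce encodes epsilon-sarcoglycan, a membrane protein mutated in myoclonus dystonia in humans, and lies next to Peg10 with no protein-coding gene between them. Its single probe read 4.11 to 4.40 over the 12 arrays and was detected on 1 array, of ESC. Plagl1, a zinc finger regulator of the cell cycle and of other imprinted genes, had 3 probes that read 4.12 to 4.53 and were detected on 0 arrays. Neither gene was tested, and these levels give only an upper bound near background.

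Impact, a protein that restrains the amino acid sensor kinase Gcn2, was bright in every group. Its arrays read 10.42, 9.84 and 9.91 in MEF, 9.66, 9.91 and 9.93 in ESC, 9.60, 9.56 and 9.36 in iPS4F, and 9.32, 9.34 and 9.35 in iPS6F. MEF and ESC overlapped, and both iPS groups lay below every MEF array. The difference between ESC and MEF was -0.22 ± 0.14 SE and was not called (limma adjusted p = 0.165). It was -0.55 in iPS4F (0.00194) and -0.72 in iPS6F (0.000186), and iPS6F were 0.50 ± 0.14 SE below ESC (0.00819).

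The second Impact probe went the other way. It read 4.91, 5 and 4.93 in MEF, 6.23, 5.83 and 5.95 in ESC, 6.74, 6.84 and 6.20 in iPS4F, and 5.96, 6.77 and 6.52 in iPS6F, so that MEF were below all other arrays. Its differences from MEF were 1.06 ± 0.19 SE in ESC (limma adjusted p = 1.04e-04), 1.65 in iPS4F and 1.47 in iPS6F, and iPS4F were 0.59 above ESC (0.0205). No direction is therefore given for Impact as a gene. With median scaling the calls of the bright probe ended for iPS4F against MEF (-0.11) and for iPS6F against ESC (-0.27).

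Snrpn encodes a spliceosomal Sm protein and shares its transcript with Snurf, a small upstream reading frame. Probes that carried the symbol Snurf were read in place of Snrpn, as a neighbour. The brightest read 8.03, 8.05 and 8.14 in MEF, 10.99, 11.10 and 11.28 in ESC, 10.95, 10.99 and 10.97 in iPS4F, and 11.00, 10.90 and 11.00 in iPS6F. MEF lay below all other arrays, and Snurf was 8.31-fold higher in ESC (3.05 ± 0.10 SE, limma adjusted p = 4.08e-14). It thus ran opposite to Ndn, from which it is separated by 1 protein-coding gene in RefSeq's order.

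Against ESC, the brightest Snurf probe gave -0.15 in iPS4F and -0.16 in iPS6F, neither called. A second probe was called higher in both iPS groups. It read 8.86, 8.32 and 8.34 in ESC, 10.03, 9.99 and 10.19 in iPS4F, and 10.08, 10.34 and 10.03 in iPS6F, differences of 1.56 (limma adjusted p = 1.03e-06) and 1.64 (4.55e-07). The last gave -0.41 (0.0227) and -0.31 (0.0729). The Snurf probes therefore share a direction between MEF and ESC but not between ESC and iPS cells.

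Genes listed from the same regions as these 10 went both ways. Not all of these neighbours are adjacent: 4 protein-coding genes lie between Atp10a and Ndn, and 5 between Pon2 and Sgce. Of 46 listed neighbours, 38 had a probe and 19 were tested, and between ESC and MEF 11 rose, 3 fell and 5 did not pass, with a median of 0.66 where all genes gave 0.08 (and 40.3% higher, 36.3% lower). In the Snrpn and Ndn domain, Mkrn3 was 0.66 ± 0.16 SE higher in ESC and Atp10a, a phospholipid flippase, differed by -2.03 ± 0.13 SE. Around Grb10, the dopa decarboxylase gene Ddc was higher in ESC by 1.99, Fignl1 by 2.88 and the actin nucleator Cobl by 3.32. Around Peg10, Ppp1r9a was higher in ESC by 2.01 and the paraoxonase gene Pon2 differed by -1.69. Zim1, beside Peg3, was at least 1.3-fold lower in ESC.

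Near Igf2r, the mitochondrial ribosomal gene Mrpl18 was higher in ESC by 1.55 and the chaperonin gene Tcp1 by 0.67. Sf3b5, a splicing factor gene beside Plagl1, was higher by 1.46 and Osbpl1a, beside Impact, by 0.57. Against ESC, 4 neighbours rose, 6 fell and 9 did not pass in each iPS group, beside 17.8% of all genes higher in each and 24.9% and 28% lower. Copg2, beside Mest, was higher by 1.10 ± 0.17 SE in iPS4F and 1.06 in iPS6F, and Cep41, on its other side, differed by -0.86 and -0.91. Cobl differed from ESC by -1.58 and -1.32, while Grb10 itself gave 0.61 and -0.04. With median scaling the calls of Mkrn3, Tcp1 and Osbpl1a between ESC and MEF ended, as did those of Cep41 between iPS cells and ESC.

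**Figure D4:**
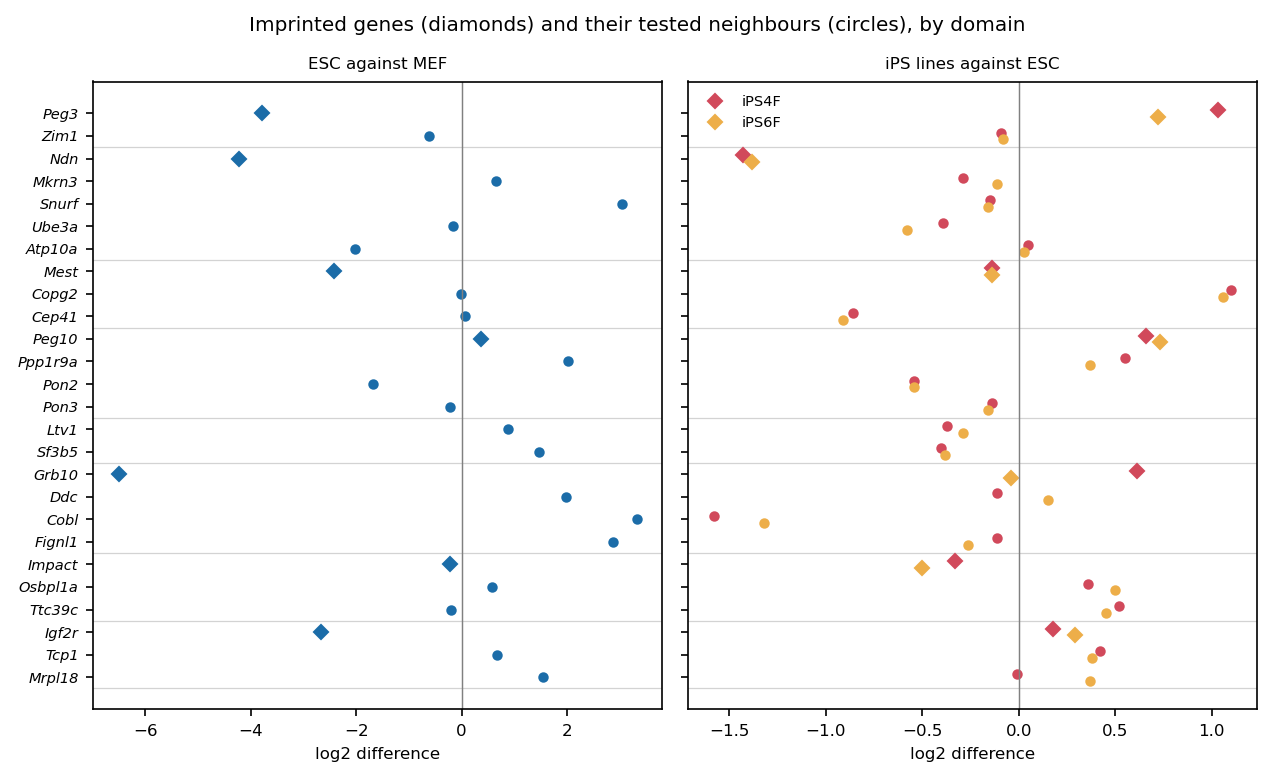
Log2 differences (x axis) of ESC against MEF (left) and of iPS4F and iPS6F against ESC (right, red and yellow). Each tested gene of the imprinted domains has a row (y axis, ordered by domain), with diamonds for the genes followed here and circles for their neighbours. On the left, Grb10 lies at -6.50 while its neighbours Ddc, Fignl1 and Cobl lie between 1.99 and 3.32.

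Other imprinted genes were read as a further list, 52 in all with 27 tested, some of them also neighbours above. Between ESC and MEF 7 rose, 12 fell and 8 did not pass, with a median of -0.02, beside 40.3% of all genes higher and 36.3% lower. The cell cycle inhibitor gene Cdkn1c differed by -7.25 ± 0.11 SE, Dlk1 by -7.50, and Igf2, the growth factor that Igf2r clears, by -9.01, whereas the placental growth gene Phlda2 was higher in ESC by 4.73. Against ESC, 13 rose and 3 fell in iPS4F (median 0.26), and 9 rose and 4 fell in iPS6F (median 0.22), beside 17.8% of all genes higher in each. Those shares of higher calls turn on the scaling, as given above. Igf2 was higher than in ESC by 2.27 and 1.14, Gnas, a G protein subunit gene, by 1.07 and 1.69, and Sfmbt2, a Polycomb-associated gene, by 1.10 and 0.88, while Zdbf2 differed by -0.70 and -0.74.

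Genes that set, protect or remove DNA methylation or bind imprinted regions were read as a list, and 11 of 16 were tested, Zfp57 not among them. In ESC against MEF 9 rose and 2 fell (median 1.85), beside 40.3% of all genes higher and 36.3% lower. The 9 include Tet1 (4.3), whose enzyme oxidises methylated cytosine and so does not protect imprints. The 2 that fell were Ctcfl (-0.76) and Zfp445 (-0.51). Dnmt3l, a cofactor of the de novo methyltransferases, was higher in ESC by 7.71 ± 0.11 SE and the methyltransferase gene Dnmt3b by 5.46. Dppa3, which protects maternal methylation in the zygote, was at least 10.6-fold higher in ESC, and Trim28, the corepressor recruited by Zfp57, was higher by 1.58. Dppa3 was higher still in iPS4F (0.68) and iPS6F (1.01), and Trim28 differed from ESC by -0.60 and -0.59, calls that ended with median scaling. In all, 5 rose and 2 fell in iPS4F against ESC, and 3 rose and 3 fell in iPS6F, where 42.7% and 45.8% of all genes were called.

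The partners of Grb10 and Igf2r in insulin-like growth factor signalling were read in the same list as genes of the Gcn2 pathway, on which Impact acts. In that list 11 of 14 tested genes (of 23 listed) were lower in ESC than in MEF, and 3 were higher (median -0.92). This stands beside 36.3% of all genes lower and a median of 0.08. Of the Gcn2 pathway genes only Atf4 was tested, and it is among the lower genes (-1.13). Igf1 differed by -5.58 ± 0.11 SE, its receptor gene Igf1r by -2.80, and Pik3r1, the regulatory subunit of phosphoinositide 3-kinase, by -3.77. Grb7, of the same adaptor family as Grb10, was at least 37.3-fold higher in ESC, and Igf2bp1, an RNA-binding protein gene, was higher by 3.44. Against ESC, 3 rose and 2 fell in iPS4F, and 3 rose and 3 fell in iPS6F, again beside 42.7% and 45.8% of all genes called.

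Relatives of the other members were read too, in the comparison of ESC with MEF where 40.3% of all genes were higher and 36.3% lower. All 4 tested MAGE genes, the family of Ndn, fell in ESC against MEF, with Maged2 at -3.84, Magee1 at -3.30 and Maged1 at -2.65, and Magee1 was lower again in both iPS groups against ESC (-1 in each). All 6 tested Sm protein genes, the family of Snrpn, rose in ESC (median 1.27), Snrpd1 by 1.62. Of 6 tested sarcoglycan complex genes, the partners of Sgce, 5 fell and 1 rose, with Sspn at least 30.2-fold lower and Sgcb at -2.13. Plagl2, a relative of Plagl1, differed by -0.97.

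Genes with the most similar profile over the 12 arrays were named by the smallest root mean square difference of centred log2 values, among 6443 genes with the same pattern of detection. For Grb10 they were App (0.247), Timp3 (0.272) and Igfbp7 (0.351). For Ndn they were Zcchc24 (0.273), Lgals1 (0.291) and Fstl1 (0.299), and for Peg3 Itgb5 (0.235), Lamp2 (0.249) and Cdo1 (0.27). Igf2r was closest to Cbx6 (0.12) and Arhgef25 (0.144), and Mest to Nptn (0.14) and Reck (0.147). Among 790 genes with the detection pattern of Peg10, the closest were Il23a (0.165) and Pmaip1 (0.179).

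Neural markers were read because several of these genes are abundant in neurons. Of 12 listed, 4 were detected on every MEF array, 4 on every ESC array, and 3 on every array of each iPS group. Their summed linear intensity was 611 to 732 in MEF, 411 to 433 in ESC, 256 to 299 in iPS4F and 310 to 380 in iPS6F, and Sox1 and Neurog2 were detected on no array. Of the 5 tested, 2 were higher and 2 lower in ESC than in MEF, with a median of 0.02, so the sum does not describe each marker. The part of neural cells in the Ndn levels was not tested. Dcn, a proteoglycan gene of fibroblasts that is also in the list of other imprinted genes, was at least 285-fold lower in ESC than in MEF, against 90.7-fold for Grb10. Dcn does not stand for all 12 fibroblast markers, whose median log2 difference was -4.89, against -6.50 for Grb10.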

How the data were processed

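RNA of 12 samples was read on Illumina mouse arrays, and the samples were grouped by title into 4 groups of 3. The deposited table holds each probe's intensity, neither normalized nor background-subtracted, per the file headers, beside a deposited detection p-value. Mean raw intensity ran from 139 to 237 per array, and 14107 to 17741 of 45281 probes were detected. The authors also deposited log2 values, with a median of 1.16 and a minimum of -0.4952 in every column and the same rank order of probes as the intensities. Their columns were thus already matched across arrays, so this alternative does not test the matching of arrays itself. How those log2 values were scaled and centred is not stated in the sources at hand. The tools BeadStudio 3.2, RMA and lumi are listed per the submitters' processing notes without a role. The small number of arrays limits the precision.

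With limma 3.58.1 in R 4.3.3, neqc took the background from the detection p-values, with an offset of 16, followed by quantile normalization and log2, which understates folds of dim genes. Names came from the platform annotation (34885 probes with 1 symbol, 18 with several, 10378 with none here). Probes detected (p under 0.05) on all 3 arrays of a group were kept, 15294 with a symbol, and each gene was read on its kept probe of highest mean. One lmFit and eBayes model of 4 group means gave 6 differences, adjusted by Benjamini-Hochberg over 10096 genes, and other probes over the 15294. It was tested on simulated data. Bounds ("at least") set an undetected group at the lowest detected log2 value of each array, and leave out the spread between arrays.

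Named genes were all members, every kept probe of them, and examples from fixed lists. The members and lists were chosen with earlier results of these data known. Alternatives were median scaling, the authors' log2 values, no background correction, an offset of 50, other filters, the mean of probes, a replicate block, the 2 groups alone, and leaving out each array. Arrays within a group correlated at 0.99 to 0.995 and none were identical.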

Additional observations from a re-analysis of the deposited data

Results flagged for a closer look

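Grb10, Igf2 and Dnmt3b differed between iPS6F and iPS4F by a test of that difference itself, which is the same as a difference between their distances from ESC. Only the members and a set of named genes were looked at for this, and 1.16% of all tested genes passed in that comparison. Grb10 was 0.64 lower in iPS6F (log2 difference -0.64, limma adjusted p = 0.0347), a call that most alternative settings ended, as given above. Igf2 averaged 7.27 ± 0.14 (SD, n = 3) in iPS4F and 6.14 ± 0.32 in iPS6F, a difference of -1.13 (limma adjusted p = 0.00119). Dnmt3b averaged 11.47 ± 0.13 in iPS4F and 10.98 ± 0.10 in iPS6F, a difference of -0.49 (limma adjusted p = 0.0272). For Igf2 and Dnmt3b the alternative settings were not read between the iPS groups, so whether these calls hold is not known. Median scaling moved the median of all genes to -0.29 in this comparison. Groups of 3 arrays were too small to look for single arrays far from the rest.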

How the results depend on the processing

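The count of called genes stayed within 1.5 times for ESC against MEF (6, from 5 to 7), iPS4F against MEF (7, from 6 to 7), iPS6F against MEF (7, from 6 to 7), iPS4F against ESC (4, from 3 to 6) and iPS6F against ESC (4, from 3 to 5) under every alternative run. The high counts against ESC came with the mean of probes (Mest and Igf2r gained), and median scaling gave 5 for iPS4F and 3 for iPS6F. Leaving out each array gave 5 to 6, 7 to 7, 7 to 7, 4 to 5 and 4 to 4 in that order. These counts ignore direction, except where every kept probe had to be called in 1 direction. With the mean of probes, Impact thus counts as called against MEF at 0.42 (ESC), 0.55 (iPS4F) and 0.38 (iPS6F), where its brightest probe gave -0.22 (not called), -0.55 and -0.72. The count of 1 for iPS6F against iPS4F, which is Grb10, fell to 0 with median scaling, the authors' log2 values, no background correction, an offset of 50, no filter on dim probes, the mean of probes, every kept probe called in 1 direction, and the 2 groups alone, and ran from 0 to 1 when each array was left out. The replicate numbers did not pair the arrays (same-number correlations of deviations -0.176 to 0.14, 6 of 12 arrays closest to their own number), and a replicate block also gave 0 there (Grb10 -0.64, limma adjusted p = 0.0635) and changed no other count.

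Signs turned as follows, and except where a value shows it the cause was not tested. With median scaling, Mest gave 0.54 (iPS4F against ESC), 0.18 (iPS6F against ESC) and -0.36 (iPS6F against iPS4F), Impact 0.32 (iPS4F against ESC), Grb10 0.30 (iPS6F against ESC), Snurf 0.45 and 0.09 against ESC, and Ndn -0.22, Peg10 -0.18 and Igf2r -0.28 between the iPS groups. With the mean of probes, Impact gave 0.42, 0.55 and 0.38 against MEF (ESC, iPS4F, iPS6F) and 0.13 for iPS4F against ESC, Mest -0.03 between the iPS groups, and Snurf 0.33 and 0.39 against ESC. With the other probe, Impact gave 1.06, 1.65 and 1.47 against MEF and 0.59 and 0.41 against ESC, and Mest -0.30 between the iPS groups. Leaving out 1 array gave ranges across 0 for Mest (-0.22 to 0.00 for iPS6F against ESC, -0.10 to 0.14 between the iPS groups), Grb10 (-0.10 to 0.07 for iPS6F against ESC), Ndn (-0.07 to 0.25) and Peg10 (-0.10 to 0.23) between the iPS groups. In all, 845 of 912 alternative values for the tested genes kept direction and call, 25 lost the call, 13 gained it and 29 turned. The slide as a block was not run because the headers give no slide.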
